A study of Mus musculus with 27 samples.

Results

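The osteocalcin genes (*Bglap*, *Bglap2* and *Bglap3*), *Mgp* and the vitamin K enzymes *Ggcx* and *Vkorc1* were followed across Prx1-labelled cells of muscle, periosteum and bone marrow. The 6 genes were taken by symbol from the table of normalized counts, in which 7 of 30154 rows matched because *Ggcx* was listed under a pair of identifiers with the same values and was counted once. After removal of a transgene row and of 36 such repeated entries, 30117 entries remained, and all 6 genes were among the 18415 that reached a normalized count of 10 in at least 3 of the 27 libraries.

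Osteocalcin is a small secreted protein of mineralizing bone and is the classical late marker of osteoblasts. The mouse carries a cluster of osteocalcin genes, of which *Bglap* and *Bglap2* are known as the bone osteocalcins, while *Bglap3*, also called osteocalcin-related gene, is known for expression outside bone. Matrix Gla protein, the product of *Mgp*, is made by chondrocytes and vascular smooth muscle and keeps soft tissue and cartilage from calcifying. Both proteins receive gamma-carboxyglutamate residues from gamma-glutamyl carboxylase (*Ggcx*), an enzyme of the endoplasmic reticulum that consumes reduced vitamin K, and the vitamin is recycled by vitamin K epoxide reductase (*Vkorc1*), the target of warfarin.

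The cells came from the femur and tibia of Prx1-CreER/Ai14/Rag1 mice of both sexes, 8 to 12 weeks old. All 9 groups share these alleles: the Prx1 promoter drives a tamoxifen-dependent Cre, Ai14 is the tdTomato reporter that Cre switches on, and the Rag1 mutation removes mature lymphocytes. Cells were collected 3 days after tamoxifen, bone marrow by flushing, periosteum by scraping and digestion, and muscle by a longer digestion. The label therefore marks cells in which the promoter was active and their progeny, and is not a cell type. Cells without CD45 were sorted into P1, which lacks CD105 and carries CD200, P2, which lacks both markers, and P3, which carries CD105 with variable CD200, with 3 replicates for each subpopulation of each tissue. The labels state that tissues came from the same animals but not which animal gave which library, so the libraries were treated as independent, and the p-values measure only the spread between these libraries. The comparisons asked how the subpopulations of a tissue differ and how the same subpopulation differs between tissues.

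In the GRCm38 build the osteocalcin genes lie in a row on the minus strand of chromosome 3, *Bglap3* at chr3:88368616-88372743, *Bglap2* at chr3:88377736-88378699 and *Bglap* at chr3:88383501-88384464. Each has a coding transcript of 4 exons. *Mgp* is at chr6:136872435-136875823 on the minus strand, *Ggcx* at chr6:72414308-72430712 on the plus strand and *Vkorc1* at chr7:127893063-127895617 on the minus strand. The coding sequences of the 3 osteocalcin genes, without the stop codon, are shown because their likeness sets how far the separate counts can be trusted. Capitals in *Bglap* mark the bases that differ from *Bglap2*, and capitals in *Bglap2* and *Bglap3* mark the bases that differ from *Bglap*.
Bglap: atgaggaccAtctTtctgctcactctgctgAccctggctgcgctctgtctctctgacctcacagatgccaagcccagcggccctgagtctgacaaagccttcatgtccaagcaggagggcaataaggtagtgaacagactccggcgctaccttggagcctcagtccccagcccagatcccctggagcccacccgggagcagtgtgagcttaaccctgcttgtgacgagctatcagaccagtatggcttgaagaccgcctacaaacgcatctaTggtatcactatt
Bglap2: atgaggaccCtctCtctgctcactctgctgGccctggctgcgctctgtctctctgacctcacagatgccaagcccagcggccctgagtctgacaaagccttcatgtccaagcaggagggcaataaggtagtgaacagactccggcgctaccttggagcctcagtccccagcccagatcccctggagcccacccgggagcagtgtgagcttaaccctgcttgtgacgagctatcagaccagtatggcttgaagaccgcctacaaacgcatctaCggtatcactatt
Bglap3: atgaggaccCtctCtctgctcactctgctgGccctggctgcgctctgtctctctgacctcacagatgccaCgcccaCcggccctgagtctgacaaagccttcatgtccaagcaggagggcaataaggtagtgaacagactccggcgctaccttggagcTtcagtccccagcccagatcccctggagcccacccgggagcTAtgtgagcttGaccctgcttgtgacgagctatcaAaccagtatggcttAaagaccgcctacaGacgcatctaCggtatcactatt
*Bglap* and *Bglap2* differed at 4 of 285 coding bases (98.6% identity), *Bglap* and *Bglap3* at 13 (95.4%) and *Bglap2* and *Bglap3* at 9 (96.8%). Over the whole transcript, 74.7% of all 50-base windows of *Bglap* and 88.2% of those of *Bglap2* also occurred in another osteocalcin gene, and with 100-base windows the shares were 56.3% and 57%. The 717-base transcript of *Bglap3* shared 24% of its 50-base windows and 3.24% of its 100-base windows. How reads matching several genes were counted is not given in the sources used here, so the levels of the 3 genes apart from one another are uncertain, while their sum is less so. *Mgp* shared no window with another gene, and *Ggcx* shared 2 of 2880 windows of 50 bases. For *Vkorc1*, 50.5% of the 50-base windows also occurred in Gm21974, an annotated gene on the same strand that overlaps it, and the group means of Gm21974 lay between 0 and 4.09 normalized counts. Because some reads could fit both, the level of *Vkorc1* could be too low by an amount that cannot be read from the table.

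The libraries summed to between 8623110 and 26222500 normalized counts, with P2 and bone marrow P1 at the high end. The depth in reads is not known from these values. P2 carried the highest sums of several markers of other cell types. Myofibre markers (8 of 8 listed genes measured) summed to 2071380 to 2866490 in muscle P2 against 1339 to 44825 in the other muscle groups. Erythroid markers (7 of 8) summed to 8049020 to 12794700 in bone marrow P2 and 3447730 to 9532670 in periosteum P2, against 120540 to 496087 in P1 and P3 of bone marrow. Leukocyte markers (11 of 11) reached 253119 in bone marrow P2 and 75947 in bone marrow P1 although CD45 was sorted against. Periosteum P2 replicate 2 stood apart with a leukocyte sum of 109299, beside 797 and 1665 in the other libraries of its group. Endothelial markers were highest in P3 in each tissue. Fewer cells of a type and less RNA per cell cannot be told apart in these bulk samples. Libraries of a group correlated at 0.862 to 0.955 in muscle, 0.631 to 0.827 in periosteum and 0.767 to 0.935 in bone marrow, so periosteum was the least even tissue.

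*Bglap* was highest in P1 in each tissue, and the level in P1 followed the order bone marrow, periosteum, muscle. The 3 bone marrow P1 libraries held 498392, 521555 and 742558 normalized counts, which is 3.17% ± 0.917 (SD, n = 3) of all counts in a library. The periosteum P1 libraries held 132686, 189423 and 234950 (1.38% ± 0.386), and the muscle P1 libraries held 4030, 7243 and 13336 (0.0693% ± 0.0373). These 3 groups did not overlap, and every P1 library was above every P2 and P3 library of its own tissue. P2 was at the other end, with 5.52, 10.4 and 14.9 in muscle, 656, 821 and 1054 in periosteum and 247, 432 and 743 in bone marrow. P3 lay between but was uneven: muscle P3 stayed within 452 to 921, whereas periosteum P3 had libraries at 689, 14972 and 23181 and bone marrow P3 at 365, 3256 and 11632. Other osteoblast and osteocyte markers (8 of 8 listed genes measured, without the osteocalcin genes) had the same order of tissues in P1, summing to 2366460 to 4439040 in bone marrow P1, 551266 to 1175350 in periosteum P1 and 80742 to 128972 in muscle P1. Their sums were at most 102270, 287464 and 69561 in the P2 and P3 libraries of these tissues. Their part in the *Bglap* levels was not tested.

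**Figure D1:**
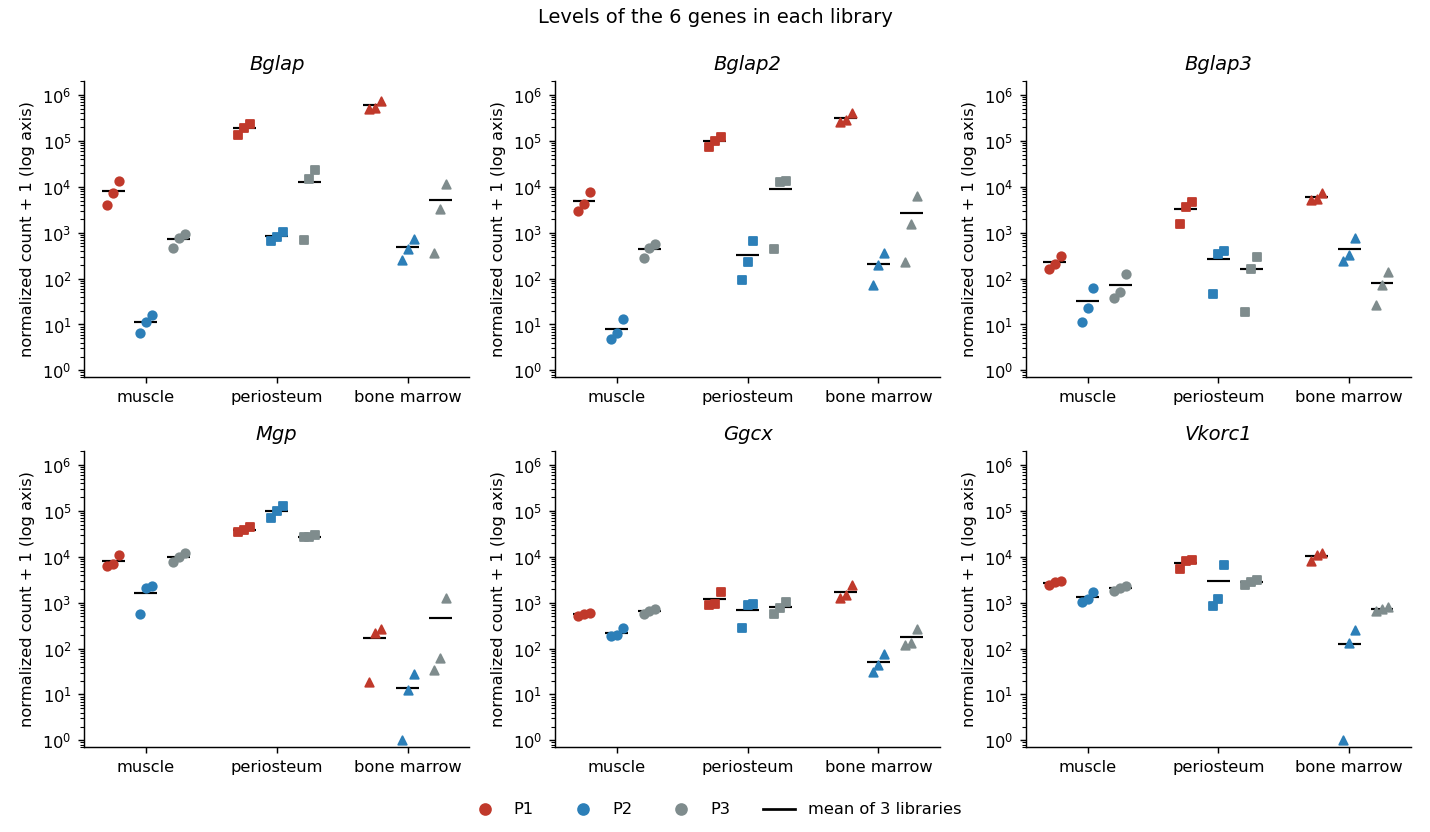
Normalized count + 1 (log axis) of the 6 genes in every library, by tissue and subpopulation, where points are the libraries and lines the mean of 3. *Bglap* and *Bglap2* were highest in P1 of each tissue, *Mgp* was highest in periosteum and lowest in bone marrow, and a bone marrow P2 library was listed at 0 for *Mgp* and another for *Vkorc1*.

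With limma on log2(normalized count + 1), a gene was called where the Benjamini-Hochberg adjusted p was under 0.05 and the log2 fold change beyond 1.5 in either direction. *Bglap* was called in 11 of 18 comparisons. In bone marrow it was 1341-fold higher in P1 than in P2 (log2 fold change 10.39, SE 0.98, adjusted p 2.76e-08), where 34% of all genes tested were called. It was 240.5-fold higher in P1 than in P3 (log2 fold change 7.91, adjusted p 8.83e-06), where 6.6% were called. In periosteum the log2 fold changes were 7.77 against P2 (adjusted p 4.1e-06, background 19.1%) and 4.86 against P3 (adjusted p 0.00376, background 4.19%). With P1 and P3 of periosteum fitted alone the adjusted p was 0.461. In muscle P1 exceeded P2 by 9.43 on the log2 scale (adjusted p 8.63e-07, background 8.19%). Against muscle P3 the log2 fold change of 3.41 (95% confidence interval 1.39 to 5.43) was not called at adjusted p 0.161, although the libraries did not overlap; only 0.467% of genes were called there.

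P2 was below P3 for *Bglap* in muscle by 6.02 on the log2 scale (log2 fold change -6.02, adjusted p 0.000136, background 11.1%). In periosteum the difference was called (-2.91, adjusted p 0.0421, background 17.1%), but the groups overlapped, and it was not called without any 1 of 10 libraries, namely the 3 of periosteum P2, the 3 of bone marrow P1, replicates 2 and 3 of periosteum P3, muscle P1 replicate 3 and muscle P3 replicate 2. In bone marrow the log2 fold change of -2.48 (95% confidence interval -4.5 to -0.46) was not called at adjusted p 0.073, beside a background of 20%, and the groups overlapped.

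Between tissues, *Bglap* in P1 was lower in muscle than in periosteum (log2 fold change -4.63, adjusted p 0.00553) and than in bone marrow (-6.31, adjusted p 0.000101), with 4.88% and 8.32% of genes called. The difference between periosteum and bone marrow, -1.68 with a 95% confidence interval of -3.7 to 0.35, was not called (adjusted p 0.408, background 4.88%), although the libraries did not overlap. In P2, muscle was again lower than periosteum (-6.29, adjusted p 3.89e-05, background 28%) and than bone marrow (-5.35, adjusted p 0.000164, background 40.1%), and periosteum and bone marrow overlapped (0.94, interval -1.08 to 2.97, background 20%). Myofibre markers made up their highest sums in the same muscle P2 libraries, and their part in the low osteocalcin level was not tested. In P3 no pair of tissues was called: the log2 fold changes were -3.17 for muscle against periosteum, -1.81 for muscle against bone marrow and 1.37 for periosteum against bone marrow, at backgrounds of 3.5%, 10.4% and 6.92%.

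*Bglap2*, the second bone osteocalcin, was called in the same 11 comparisons and in the same directions as *Bglap* (their shared sequence means that the calls of the pair are not independent). Its libraries held 254932, 280982 and 407202 in bone marrow P1, 73495, 100229 and 122388 in periosteum P1 and 3001, 4230 and 7487 in muscle P1. The groups did not overlap. The log2 fold change of P1 over P2 was 10.8 in bone marrow, 8.67 in periosteum and 9.27 in muscle, with SE 1.05 and adjusted p of 4.37e-08, 2.37e-06 and 2.33e-06. The lower level in muscle P1 than in periosteum P1 (-4.4, adjusted p 0.0135) was not called without muscle P1 replicate 1 or 3, the excess of periosteum P1 over P3 (4.52, adjusted p 0.0119) not without periosteum P3 replicate 1, and the lower level of periosteum P2 than P3 (-4.15, adjusted p 0.00854) not without periosteum P3 replicate 2. Both periosteum calls, and that of muscle below periosteum in P2 (-5, adjusted p 0.000918), were lost with the groups fitted alone. Over the 27 libraries the log2 levels of *Bglap* and *Bglap2* correlated at r = 0.991, and at 0.911 once the group means were removed, which is a description since the libraries share groups and the genes share sequence.

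*Bglap3* was far below *Bglap* and *Bglap2* in P1. In P2 its mean count was 31.3 in muscle beside 10.3 for *Bglap*, 439 in bone marrow beside 474 and 259 in periosteum beside 843. These counts are not divided by length. Divided by the joint exon length of its 3 coding transcripts, 2280 bases beside 440 for *Bglap*, *Bglap3* was below *Bglap* in each P2 group. The means per kilobase were 13.7 beside 23.4 in muscle, 192 beside 1078 in bone marrow and 114 beside 1917 in periosteum. The *Bglap3* transcript used for the windows above has only 717 bases, so the order in muscle P2 rests on the length chosen. Its P1 libraries held 5173, 5457 and 7239 in bone marrow P1, 1561, 3557 and 4667 in periosteum P1 and 158, 209 and 313 in muscle P1. P1 was highest in each tissue, with log2 fold changes over P2 of 3.91 in bone marrow (adjusted p 0.00316), 4.01 in periosteum (adjusted p 0.00497) and 3.12 in muscle (adjusted p 0.042). Over P3 they were 6.52 in bone marrow (adjusted p 7.34e-05) and 4.94 in periosteum (adjusted p 0.00286), and 1.79 in muscle, not called at adjusted p 0.947. The muscle call against P2 is thin, since adjusted p was 0.0505 with a replicate block and the call was also lost without any 1 of 11 libraries.

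In bone marrow, the means of P2 and P3 stood in the opposite order for *Bglap3* and for *Bglap*, whose P2 and P3 libraries overlapped. The P2 libraries held 241, 331 and 744 *Bglap3* counts, all above the P3 libraries at 25, 71.9 and 137. The log2 fold change of 2.61 (95% confidence interval 0.62 to 4.6) was not called at adjusted p 0.0549 (0.0459 without periosteum P2 replicate 2), and with *Bglap* at -2.48 in the same comparison the difference between the genes was not tested. *Bglap3* was called in 9 of 18 comparisons in all, and 4 of these were between tissues: muscle was lower than periosteum and than bone marrow in P1 (log2 fold changes -3.76 and -4.75, adjusted p 0.021 and 0.00165) and in P2 (-2.87 and -3.96, adjusted p 0.0274 and 0.00234). In P2 the muscle and periosteum libraries overlapped, and each of the calls between muscle and periosteum was lost without any 1 of 4 libraries (replicates 1 and 3 of muscle P1, 2 and 3 of periosteum P1, 2 and 3 of muscle P2, 1 and 2 of periosteum P2). The periosteum calls of P1 over P2 and P3 were lost with the groups fitted alone (adjusted p 0.165 and 0.325), as was that between muscle P2 and periosteum P2 (0.227). Without periosteum P2 replicate 2, which had the high leukocyte sum, the call of *Bglap* in periosteum P2 against P3 was lost (adjusted p 0.102), as was that of *Bglap3* between muscle P2 and periosteum P2 (0.0976). Calls were gained for *Bglap2* and *Bglap3* in bone marrow P2 against P3 (0.0412 and 0.0459) and for *Ggcx* in muscle P2 against P3 (0.0413), and no other call of the 6 genes changed.

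*Bglap3* took its highest shares of the osteocalcin counts in P2. It made up 0.662% ± 0.0503 (SD, n = 3) of the summed osteocalcin counts in bone marrow P1, 1.08% ± 0.291 in periosteum P1 and 1.82% ± 0.358 in muscle P1. In P2 it made up 23.1%, 43% and 54.2% in the bone marrow libraries, 4.16%, 18.6% and 31.6% in the periosteum libraries and 33.5%, 55.1% and 81.5% in the muscle libraries. All 9 P2 libraries were thus above all 9 P1 libraries and above the P3 libraries of their own tissue, which held 3.31% to 9.24% in muscle, 0.563% to 1.57% in periosteum and 0.763% to 4.05% in bone marrow. In muscle P2 these shares rest on sums of only 30.8 to 76.3 normalized counts. The shares are of counts not divided by length. The exons of the 3 coding transcripts of *Bglap3* together span 2280 bases, beside 440 for *Bglap* and 471 for *Bglap2*. No test was made of this share.

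**Figure D2:**
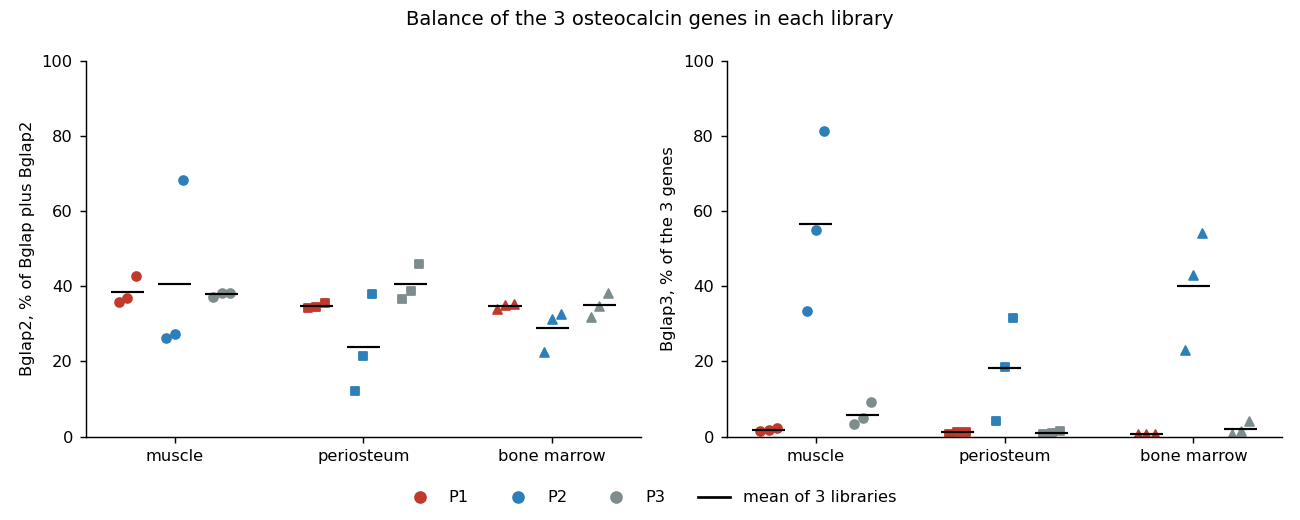
Share of *Bglap2* in *Bglap* plus *Bglap2* (left, percent) and of *Bglap3* in all 3 osteocalcin genes (right, percent) in every library, by tissue and subpopulation, with lines at the mean of 3. In P1 *Bglap2* lay between 33.8% and 42.7% and *Bglap3* was at most 2.2%, whereas in P2 *Bglap3* was between 4.16% and 81.5%.

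*Bglap2* held a nearly fixed share of the *Bglap* and *Bglap2* counts in P1. The share was 33.8%, 35% and 35.4% in bone marrow, 34.2%, 34.6% and 35.6% in periosteum and 36%, 36.9% and 42.7% in muscle, so all 3 muscle libraries were above the others. The largest and smallest tissue means differed by 3.74 percentage points (exact permutation of the 9 libraries over 3 tissues, one-sided p = 0.0357, smallest possible 0.00357). Without the muscle library at 42.7% the difference was 1.65 percentage points (exact permutation p = 0.129), and p was over 0.05 without any 1 of 7 of the 9 libraries. Other groups ranged more widely in some cases, from 12.2% to 37.9% in periosteum P2 and from 26.3% to 68.4% in muscle P2, and less in muscle P3, at 37.2% to 38.3%, although its summed osteocalcin counts were also low at 770 to 1540.

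*Mgp* differed mainly between tissues. Periosteum was highest, with P2 libraries at 69624, 99253 and 129396, P1 libraries at 34674, 37494 and 44565 and P3 libraries at 26192, 26322 and 29042, so that its 3 subpopulations did not overlap. Muscle came next at 6147 to 10717 in P1, 7492 to 12068 in P3 and 553 to 2249 in P2. Bone marrow was low in all 9 libraries, at 17.4, 214 and 262 in P1, 32.3, 61.2 and 1285 in P3, and 0, 11.5 and 27.5 in P2. Per kilobase of transcript, the mean level in periosteum P2 was 161142 normalized counts and that in bone marrow P2 was 21, while that of *Bglap* was 1917 and 1078.

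*Mgp* was called in 9 of 18 comparisons, and 7 of these were between tissues. Each subpopulation was higher in periosteum than in bone marrow, by log2 fold changes of 8.58 in P1 (adjusted p 2.07e-05), 13.73 in P2 (SE 1.1, adjusted p 3.68e-09) and 7.61 in P3 (adjusted p 6.9e-05). Each was also higher in muscle than in bone marrow, by 6.25, 7.59 and 6.12 (adjusted p 0.000405, 9.65e-06 and 0.000471). Muscle was lower than periosteum in P2 (-6.14, adjusted p 0.000188), whereas the differences in P1 (-2.33, 95% confidence interval -4.6 to -0.06) and P3 (-1.5, -3.77 to 0.77) were not called at adjusted p of 0.27 and 0.495. Within a tissue, only bone marrow gave calls, with P2 below P1 (log2 fold change of P1 over P2 3.84, adjusted p 0.00916) and below P3 (-4.29, adjusted p 0.00801). Both rest on a P2 group with a library listed at 0, and neither was called when the 2 groups were fitted alone or when bone marrow P2 replicate 2 was left out. The first was also lost without bone marrow P1 replicate 1 and the second without bone marrow P3 replicate 1. Between tissues, periosteum P3 over bone marrow P3 had an adjusted p of 0.0632 with the groups fitted alone. Of all genes, 4.88%, 20% and 6.92% were called between periosteum and bone marrow in P1, P2 and P3. Between muscle and bone marrow the shares were 8.32%, 40.1% and 10.4%, and between muscle and periosteum in P2 28%. Within bone marrow they were 34% between P1 and P2 and 20% between P2 and P3.

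Cartilage markers were highest in periosteum, as *Mgp* was, but the order of muscle and bone marrow was not the same. The 12 measured chondrocyte markers of 14 listed summed to 379496 to 855708 in periosteum P2, 134435 to 547168 in periosteum P1 and 42955 to 136178 in periosteum P3. In muscle the sums were 25998 to 38559 in P1, 596 to 1743 in P2 and 6086 to 11037 in P3, and in bone marrow 165 to 1163 in P2 and 543 to 8095 in P3. In P2, 11 of 12 were called higher in periosteum than in bone marrow and 11 of 12 lower in muscle than in periosteum, beside 20% and 28% of all genes called in either direction. Between muscle and bone marrow in P2, where *Mgp* was called higher in muscle, 3 of 12 were called higher, with a median log2 fold change of -1.54 (-0.74 over all genes) and a background of 40.1%. Bone marrow P1 summed to 89652 to 173016, above muscle P1 although *Mgp* was lower there, of which *Col2a1* was the bulk at a mean of 134878, while *Acan*, the main cartilage proteoglycan, had a mean of 9.37 there against 8120 in periosteum P2 and 4371 in periosteum P1. None of the 12 was at 0 in all 3 libraries of any periosteum or bone marrow group or of muscle P1 or P3, and 1 was in muscle P2. Mural markers, in the other cell type known for *Mgp*, summed to 49597 to 115174 in muscle P1 and 1464 to 3646 in bone marrow P1. In periosteum, where *Mgp* was highest, they summed to only 5619 to 6907 in P1, 1868 to 5760 in P2 and 6025 to 8045 in P3. The part of either in the *Mgp* levels was not tested.

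**Figure D3:**
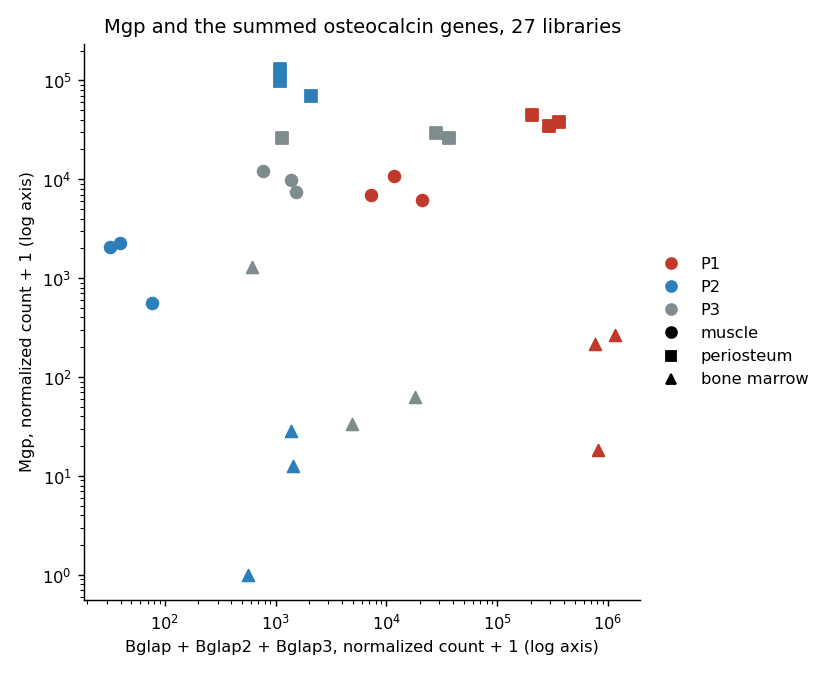
*Mgp* against the sum of *Bglap*, *Bglap2* and *Bglap3* in the 27 libraries, both as normalized count + 1 on log axes, with colours for subpopulations and symbols for tissues. Bone marrow P1 sat at the far right and low, periosteum P2 at the top and left of centre, and periosteum P1 was high on both axes.

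The RNAs of the Gla proteins of bone and cartilage were thus unevenly paired. The summed osteocalcin genes were 4.9% ± 1.45 (SD, n = 3) of a bone marrow P1 library and 2.14% ± 0.582 of a periosteum P1 library, while *Mgp* was 0.000944% ± 0.000755 and 0.289% ± 0.0293. In periosteum P2 the order was reversed, with *Mgp* at 0.532% ± 0.139 and the osteocalcin genes at 0.00841% ± 0.00567. Over the 27 libraries *Bglap* and *Mgp* correlated at r = 0.0486 on the log2 scale.

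*Ggcx*, the carboxylase, spanned a narrower range. Its libraries held 1240, 1435 and 2459 in bone marrow P1, 881, 927 and 1721 in periosteum P1 and 519, 573 and 592 in muscle P1. Bone marrow P2 was lowest at 29.1, 42.6 and 74.8, and bone marrow P3 held 117, 131 and 272. All other groups lay between 186 and 1043, so the group that was highest and those that were lowest came from the same tissue.

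*Ggcx* was called in 7 of 18 comparisons, and bone marrow was on one side of each. P1 exceeded P2 by a log2 fold change of 5.14 (SE 0.55, adjusted p 1.81e-07) and P3 by 3.34 (adjusted p 0.000251), and P2 was below P3 (-1.81, adjusted p 0.0214). In P2, muscle and periosteum were above bone marrow by 2.23 (adjusted p 0.00243) and 3.72 (adjusted p 2.35e-05). In P3 they were above it by 2 (adjusted p 0.0161) and 2.23 (adjusted p 0.0127). Within bone marrow, 34% of all genes were called between P1 and P2, 6.6% between P1 and P3 and 20% between P2 and P3. Against bone marrow, 40.1% were called for muscle and 20% for periosteum in P2, and 10.4% and 6.92% in P3. Adjusted p was under 0.05 in 8 of 18 comparisons for *Ggcx*, so the count of 7 also rests on the fold threshold. The calls in P3 and that of P2 below P3 were thin: muscle over bone marrow was lost without replicate 2 or 3 of bone marrow P3 or replicate 1 or 2 of muscle P3, periosteum over bone marrow without replicate 2 or 3 of bone marrow P3 or replicate 2 of periosteum P3, and P2 below P3 without replicate 1 or 2 of bone marrow P2 or replicate 1 of bone marrow P3. The last 2 were also lost with the groups fitted alone (adjusted p 0.076 and 0.0657). In P1 no pair of tissues was called, the largest being muscle below bone marrow (-1.54, 95% confidence interval -2.67 to -0.41, adjusted p 0.086). In muscle and periosteum, log2 fold changes of P1 over P2 were 1.37 (interval 0.24 to 2.49) and 0.88 (-0.25 to 2.01), and neither was called. Erythroid sums were higher in bone marrow P2 than in P1, as given above, and were 120540 to 496087 in bone marrow P1 and 278264 to 480492 in bone marrow P3. Their part in the *Ggcx* levels was not tested.

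*Vkorc1*, the reductase, had the same outline at a higher level. Its libraries held 8182, 11131 and 12020 in bone marrow P1, 5302, 7989 and 8472 in periosteum P1 and 2362, 2753 and 2933 in muscle P1. Bone marrow P3 held 646, 734 and 818, and bone marrow P2 held 0, 130 and 252. Periosteum P2 was uneven, with libraries at 862, 1220 and 6747, the last within the range of periosteum P1. Per kilobase of transcript, the mean in bone marrow P1 was 12434 normalized counts for *Vkorc1* and 584 for *Ggcx*, against 1335231 for *Bglap*.

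*Vkorc1* was called in 5 of 18 comparisons, again with bone marrow on one side of each. P1 was above P2 (log2 fold change 8.33, SE 1.14, adjusted p 6.28e-06) and above P3 (3.82, adjusted p 0.0401), and P2 was below P3 (-4.51, adjusted p 0.0073). In P2, muscle was above bone marrow by 5.33 (adjusted p 0.000767) and periosteum by 5.91 (adjusted p 0.000538). The backgrounds of these 5 comparisons, in the same order, were 34%, 6.6%, 20%, 40.1% and 20% of all genes. The call of P1 over P3 was lost with a pseudocount of 0.1 (adjusted p 0.195), without the filter (0.069), without the eBayes trend (0.0708) and with rescaled totals (0.0841). It was also lost without any 1 of the 6 libraries of bone marrow P1 and P3. These groups, at 8182 or more and 818 or less, nevertheless lay far apart. The library listed at 0, bone marrow P2 replicate 3, widened the error of every *Vkorc1* comparison: without it, 8 comparisons were called instead of 5. The 3 added were P1 over P2 in periosteum, muscle below bone marrow in P1, and periosteum above bone marrow in P3. With the groups fitted alone, bone marrow P2 against P3, muscle P2 and periosteum P2 had adjusted p of 0.114, 0.0732 and 0.193.

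**Figure D4:**
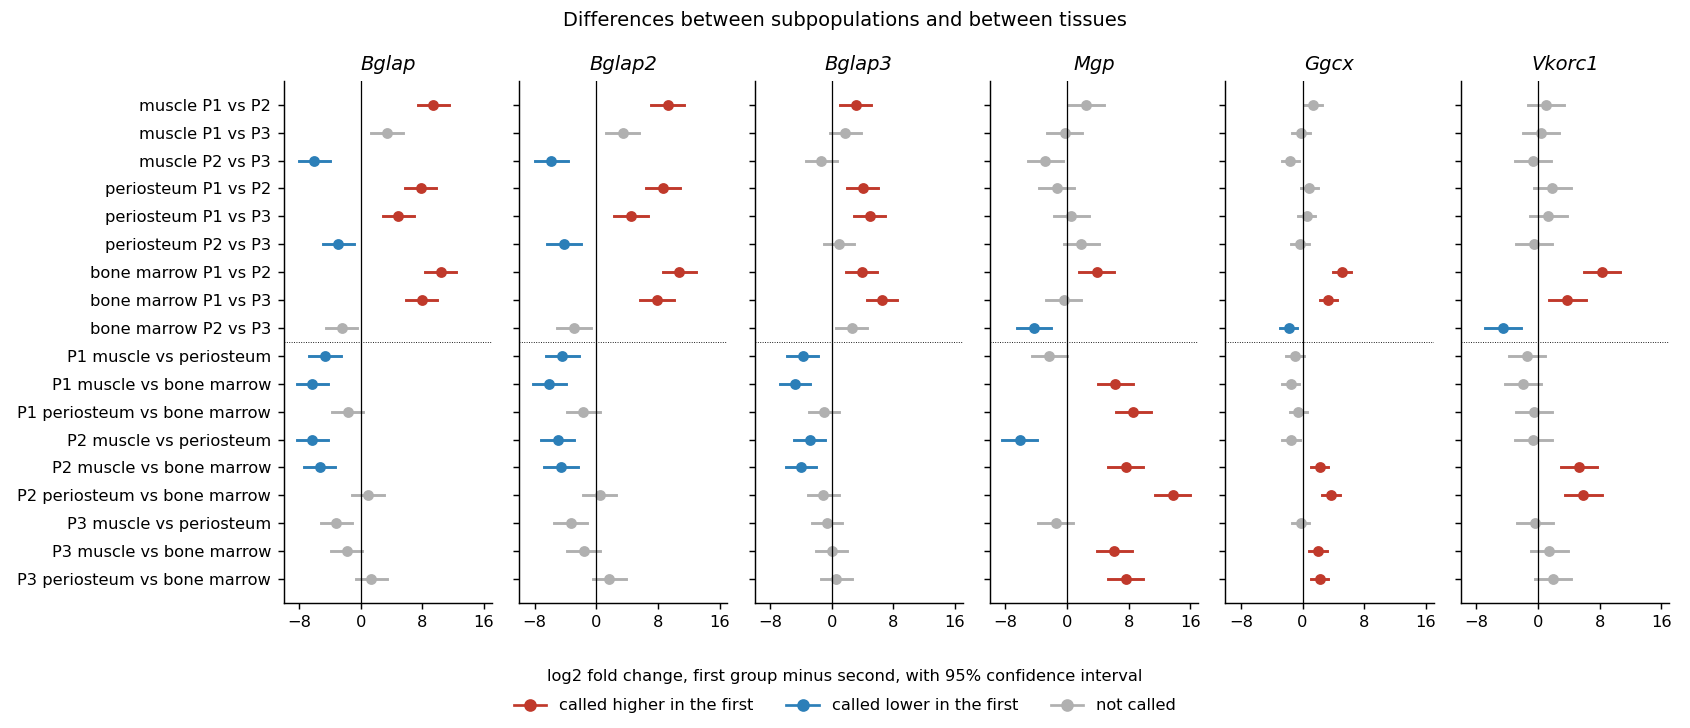
Log2 fold change on the log2(normalized count + 1) scale with its 95% confidence interval for each gene in the 18 comparisons, 9 between subpopulations above the dotted line and 9 between tissues under it. *Bglap* and *Bglap2* share their calls, *Mgp* is called mainly between tissues, and each call of *Ggcx* and *Vkorc1* involves bone marrow.

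Whether P1 stood apart to the same degree in each tissue was tested as P1 minus the mean of P2 and P3, compared between pairs of tissues. For *Ggcx* this difference was 4.24 on the log2 scale in bone marrow (SE 0.47), 0.72 in periosteum and 0.58 in muscle. It was smaller in muscle than in bone marrow by a log2 difference of -3.66 (SE 0.67, adjusted p 0.00108, background 7.41%) and in periosteum than in bone marrow by -3.52 (adjusted p 0.00354, background 2.8%). For *Vkorc1* it was 6.07 in bone marrow (SE 0.99), 1.62 in periosteum and 0.72 in muscle. Muscle was below bone marrow by -5.36 (SE 1.39, adjusted p 0.0187), a call lost with a pseudocount of 0.1 (adjusted p 0.0757) and without bone marrow P1 replicate 2, and periosteum minus bone marrow, -4.45 (95% confidence interval -7.33 to -1.57), was not called at adjusted p 0.0899. Between muscle and periosteum no member was called, beside a background of 2.44%. The bone osteocalcins gave 9.15 and 9.35 in bone marrow against 6.32 to 6.59 in muscle and periosteum. Their differences between tissues, from -2.99 to 0.1 on the log2 scale, were not called. Against bone marrow the 95% confidence intervals nevertheless excluded 0. For *Bglap* they were -5.21 to -0.25 in muscle and -5.31 to -0.36 in periosteum, and for *Bglap2* -5.64 to -0.34 and -5.41 to -0.1.

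**Figure D5:**
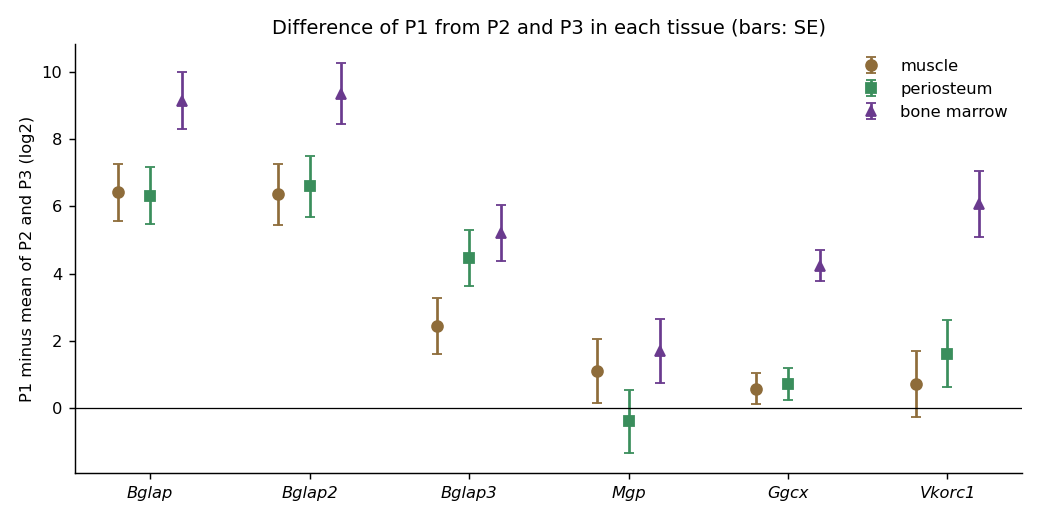
Log2 difference of P1 from the mean of P2 and P3 for each gene in muscle, periosteum and bone marrow, with bars for the SE. For *Ggcx* and *Vkorc1* bone marrow (4.24 and 6.07) stood above muscle (0.58 and 0.72) and periosteum (0.72 and 1.62).

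Other genes of vitamin K metabolism and other Gla proteins were taken from a list of 24, of which 21 passed the filter. In P1 against P2 of bone marrow 5 were called higher and 3 lower, with a median log2 fold change of -1.15 beside -0.61 over all genes, a share of calls near the background of 34%. The higher ones were *Aifm2*, a vitamin K reductase (4.29, adjusted p 0.0394), *Calu*, a chaperone of the endoplasmic reticulum that restrains the carboxylase (3.97, adjusted p 1.31e-12), *Gas6* (5.07, adjusted p 7.84e-05) and *Pros1* (3.96, adjusted p 2.21e-07), both Gla proteins that bind TAM receptors, and the TAM receptor *Mertk* (2.51, adjusted p 0.0283). The lower ones were *Prrg4*, *F2* and *F9*, with means of 4.08, 2.35 and 3.42 in P1 and 71.6, 105 and 61.7 in P2. In the other P1 comparisons within a tissue, 1 of 21 was higher in muscle P1 than P2 (*Mertk*, 2.87, adjusted p 0.039), 2 were higher and 1 lower in periosteum P1 than P2, 2 were higher in bone marrow P1 than P3, and none was called between P1 and P3 of muscle or of periosteum. The backgrounds of these comparisons were 8.19%, 19.1%, 6.6%, 0.467% and 4.19%, in the same order.

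*Calu* resembled *Ggcx* in its levels, with a mean of 15089 in bone marrow P1, 932 in bone marrow P2 and 3126 in bone marrow P3 and of 5366 to 14902 in muscle and periosteum. *Ucma*, a Gla protein of cartilage, had its highest mean in periosteum P2, as *Mgp* did. Its mean was 7844 there, 696 in periosteum P1, 172 in periosteum P3 and at most 20.9 in muscle and bone marrow. *Ucma* was called higher in periosteum P2 than in P1 (log2 fold change of P1 over P2 -4.43, adjusted p 0.0459) and than in P3 (7.96, adjusted p 0.00107). *Mgp* differed from it in having no call within periosteum and in its muscle means of 7940 in P1, 1618 in P2 and 9787 in P3. *Axl*, the other TAM receptor with high levels, had a mean of 294 in bone marrow P1 beside 4214 in periosteum P1 and 15284 in muscle P1, and muscle exceeded bone marrow in P1 by a log2 fold change of 5.67 (adjusted p 0.00547). *Gprc6a*, proposed as a receptor of osteocalcin, was listed at 0 in all libraries. The proposed receptor *Gpr37*, at a mean of 57.9 in bone marrow P1, was called higher there than in muscle P1 and periosteum P1 at 4.24 and 0.466.

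Factors known to act on the osteocalcin promoter were taken from a list of 10, all measured. In P1 against P2, 7 were called higher and none lower in bone marrow (median log2 fold change 4.4 beside -0.61 over all genes), 3 higher in periosteum (2.73 beside 0) and 2 higher in muscle (3.08 beside 0.24). Of all genes, 34%, 19.1% and 8.19% were called in these comparisons in either direction. In P1 against P3, 3 were higher in bone marrow (background 6.6%) and none was called in periosteum or muscle. *Sp7*, the osteoblast factor osterix, was called in each tissue between P1 and P2, with means of 4490 and 19.4 in bone marrow, 1537 and 211 in periosteum, and 108 in muscle P1 beside 0 in all 3 muscle P2 libraries. *Runx2*, the master factor of osteoblasts, had a mean of 3541 in bone marrow P1, 1107 in periosteum P1 and 142 in muscle P1, the last lower than bone marrow by -4.64 on the log2 scale (adjusted p 0.00902). *Dlx3* and *Sp7* were likewise lower in muscle P1 than in bone marrow P1, by -6.24 and -5.39 on the log2 scale. *Atf4*, by contrast, was highest in P2, with means of 3814 to 4039 in the 3 tissues against 2021 to 3053 in P1, and was not called in any comparison.

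The 250 bases before the start site of *Bglap* (chr3:88384467-88384716) and of the most upstream start of *Bglap3* (chr3:88372742-88372991) are shown, both on the minus strand and from RefSeq on GRCm38.p6. The pair was picked because the means of P2 and P3 of bone marrow stood in opposite order for these genes. Neither difference was called, and the *Bglap* libraries of P2 and P3 overlapped. Capitals mark ACCACA, the core letters bound by RUNX factors, searched on both strands.
Bglap: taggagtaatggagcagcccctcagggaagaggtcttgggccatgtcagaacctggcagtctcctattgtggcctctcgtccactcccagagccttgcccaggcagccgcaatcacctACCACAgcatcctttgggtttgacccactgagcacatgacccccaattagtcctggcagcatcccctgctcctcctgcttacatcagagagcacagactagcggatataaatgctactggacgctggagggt
Bglap3: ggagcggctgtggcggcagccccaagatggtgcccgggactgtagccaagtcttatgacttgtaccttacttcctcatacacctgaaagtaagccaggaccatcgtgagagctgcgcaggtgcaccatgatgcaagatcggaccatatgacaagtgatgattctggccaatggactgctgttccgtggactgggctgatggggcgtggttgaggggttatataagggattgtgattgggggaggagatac
The letters occurred once in *Bglap*, from base -132 counted from the start site, and in none of the 3 *Bglap3* windows, the *Ggcx* window or the *Vkorc1* window. Of 32851 promoter windows of this length, 14% held them on either strand. The TATA letters TATAAA occurred once in *Bglap* and in 12.4% of all windows. Such matches are descriptions, and nothing is drawn from them about binding.

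Neighbouring genes had their highest means in other groups than the member beside them, except the pseudogene Gm6821 beside *Bglap*, at 3.48 in bone marrow P1. Within 10 kb of the cluster, *Pmf1* next to *Bglap* had its highest mean in bone marrow P2 (1123) and *Smg5* also in bone marrow P2 (1214), *Paqr6*, whose downstream end lies 74 bases from that of *Bglap3* on the other strand, reached a mean of 292 in periosteum P1, and Gm21956, a pseudogene between *Bglap3* and *Bglap2*, reached 15 in periosteum P2. Next to *Vkorc1*, *Bckdk* was highest in muscle P2 (5527), and next to *Ggcx*, *Mat2a* was highest in muscle P1 (4246).

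Genes whose log2 levels were most like those of a member over the 27 libraries were found by Pearson's r, which is a description since libraries of a group are alike. For *Bglap* they were *Cadm1* (0.907), *Slc13a5* (0.893), *Slc36a2* (0.892), *Cdo1* (0.892) and *Sp7* (0.881). *Cadm1*, an adhesion molecule, had a mean of 13036 in bone marrow P1, 2647 in periosteum P1 and 366 in muscle P1. For *Mgp* they were *Prelp* (0.954), *Hbegf* (0.94), *Comp* (0.922), *Fosb* (0.911) and *Chad* (0.907), of which *Prelp*, *Comp* and *Chad* are matrix proteins of cartilage and tendon. For *Ggcx* they were *Arf4* (0.957), *Cst3* (0.95) and *Fkbp10* (0.947), and for *Vkorc1* *Sec24d* (0.973), *Gja1* (0.954) and *Kdelr3* (0.953). *Arf4*, *Sec24d* and *Kdelr3* belong to vesicle traffic between the endoplasmic reticulum and the Golgi apparatus, and *Fkbp10* is a collagen chaperone. *Ggcx* and *Vkorc1* themselves correlated at 0.759 over the 27 libraries and at -0.288 once the group means were removed.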

How the data were processed

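RNA of sorted cells was amplified with the SMART-Seq v4 Ultra Low Input kit and sequenced from Nextera XT libraries. The authors used Trim Galore for trimming, STAR for alignment and DESeq2 for analysis of the reads. The genome build, annotation, counting tool and treatment of reads with several matches are not given in the sources used here. The deposited values are normalized counts made by the authors (a signal scale), neither whole numbers nor divided by gene length, so a count model was not used.

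Values were transformed as log2(normalized count + 1), genes with at least 10 in at least 3 of the 27 libraries were kept, and a mean for each of 9 groups was fitted with limma 3.58.1 (R 4.3.3, eBayes with trend) with Benjamini-Hochberg adjustment over 18415 genes in each comparison. Genes were called at adjusted p under 0.05 and an absolute log2 fold change over 1.5. Fold changes of low genes are understated on this scale. The test was run on simulated data for bone marrow P1 against P3, where 71 of 100 genes changed by 6 on the log2 scale and 19 of 100 changed by 3 were called, each in the right direction, and 8 unchanged genes were called. The share of *Bglap2* was tested by exact permutation. Deviations from the group means of same-numbered libraries correlated at -0.0591 to 0.0504 over 36 pairs of groups, each a mean of 3 correlations. Replicate numbers thus gave no sign of pairing, but this does not show which libraries share an animal.

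Gene positions and transcripts were taken from GENCODE M21 (GRCm38), transcript lengths per gene from its coding transcripts, and promoter windows from RefSeq (GRCm38.p6), where 4 of the 6 genes had an entry. Levels per kilobase divide the normalized count by the length of the exons of the coding transcripts together. The members, the lists and the named genes were chosen with earlier results of these data known. Named genes were the 6 members, listed genes called in a comparison of P1 or among the highest of a list, neighbours within 10 kb, and the genes most like *Bglap* and *Mgp* (5 each) or *Ggcx* and *Vkorc1* (3 each). *Gprc6a*, *Atf4*, *Acan* and *Col2a1* were added for their levels.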

Additional observations from a re-analysis of the deposited data

Results flagged for a closer look

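In 3 cases the test of a difference between tissues itself passed the threshold, each for P1 minus the mean of P2 and P3. For *Ggcx* the log2 difference was -3.66 (SE 0.67, adjusted p 0.00108 by limma) for muscle minus bone marrow and -3.52 (adjusted p 0.00354) for periosteum minus bone marrow. For *Vkorc1* it was -5.36 (SE 1.39, adjusted p 0.0187) for muscle minus bone marrow. In bone marrow all 3 P1 libraries were above all 6 P2 and P3 libraries for both genes. The share of all genes with such a separation was not counted, but 34% were called between bone marrow P1 and P2 and 6.6% between P1 and P3. For *Vkorc1* the P1 libraries of muscle were also above those of P2 and P3, narrowly so, with 2362 as the lowest in P1 and 2287 as the highest in P3. The *Vkorc1* value includes a bone marrow P2 library listed at 0.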

How the results depend on the processing

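The 6 genes were recomputed with pseudocounts of 0.1 and 5, without the filter or with a mean of at least 50, with a replicate block, without the eBayes trend, with rescaled totals, with quantile normalization, with the groups compared alone and without each library in turn. No call changed direction. Of the 52 calls, 31 held under all of these and 21 were lost under at least 1. The count of calls moved by over 1.5 times for *Ggcx*, from 7 to 11 with quantile normalization, and for *Vkorc1*, from 5 to 8 without bone marrow P2 replicate 3 (range 4 to 8 over the libraries left out). The cause of the first was not tested. With the replicate block the counts were 11 for *Bglap*, 11 for *Bglap2*, 8 for *Bglap3*, 9 for *Mgp*, 7 for *Ggcx* and 5 for *Vkorc1*, and 3 differences between tissues were called; the block ended 1 call, *Bglap3* in muscle P1 against P2, and changed no other. With the osteocalcin genes summed as 1 gene, 11 comparisons were called. The *Vkorc1* difference between muscle and bone marrow was not called with a pseudocount of 0.1 or without bone marrow P1 replicate 2. The tissue difference in the *Bglap2* share was 3.33 percentage points (exact permutation p = 0.0607) as a share of all 3 genes, and 1.65 to 5.02 percentage points with 1 library left out. Over all genes, rescaled totals moved the median log2 difference by -1.01 to 0.58 and quantile normalization by -0.73 to 0.94. With the groups compared alone, the number of all genes called moved by over 1.5 times in 13 of 18 comparisons, from 3153 to 2 between P2 and P3 of periosteum and from 771 to 0 between its P1 and P3. The unknown read depth limits what can be said of levels near 0.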
